A study of Mus musculus with 6 samples.

Results

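The 10 genes described here encode the NF-κB subunits (Nfkb1, Nfkb2, Rel, Rela and Relb), the classical IκB inhibitors (Nfkbia, Nfkbib and Nfkbie), the feedback inhibitor Tnfaip3 and the kinase Ikbkb. They were picked by gene name, for what their products are known to do, out of 21950 genes in the table. RNA was isolated from mammary tissue slides of MMTV-FOXC1 transgenic and wildtype FVB/NJ mice at lactation day 2 (postnatal week 11), with 3 samples labelled for each genotype. The transgenic mice carried a human, Myc-tagged FOXC1 cDNA under the mouse mammary tumor virus (MMTV) promoter, which is hormone-responsive and active mainly in luminal epithelium. The paper kept the lines with the highest transgene expression, and the labels do not say which line or which animals were sequenced. The labels call the source epithelial cells, whereas the extraction started from tissue, and markers of leukocytes, adipocytes and fibroblasts were measured in both genotypes.

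NF-κB proteins are transcription factors that bind DNA as dimers of Rel-family subunits. In resting cells IκB proteins hold the dimers in the cytoplasm, and the IκB kinase complex marks IκB for destruction once a receptor is engaged. A second, noncanonical route runs through the kinase encoded by Map3k14 and through processing of the Nfkb2 protein, whose partner is usually RelB. In the mammary gland, RANK signaling through IκB kinase is known for its role in the expansion of the epithelium in pregnancy.

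Within a genotype the columns agreed almost within sampling noise. Between columns, chi-square over its degrees of freedom was 1.05 in transgenic and 1.02 in wildtype mice (7490 and 5835 genes), and depths within a genotype differed by at most 0.0995%. For this reason each genotype was taken as 1 library, with 35321617 reads for transgenic and 10482902 reads for wildtype mice, so that the comparison has no replicate check and no p-value is given. All intervals are 95% counting intervals, which compare the 2 libraries and not the conditions. The mouse Foxc1 row, the check of the labels, had 9.45, 9.56 and 8.21 RPKM (reads over the gene per unit of exonic length and of sequencing depth) in transgenic mice, against 2.53, 1.66 and 2.90 RPKM in wildtype mice, and whether reads of the human cDNA were counted there was not tested. The 8 milk and secretory genes took 0.232% of transgenic reads and 42.3% of wildtype reads, which lowers the RPKM of every other gene in wildtype mice. Each change is therefore given on the scale of library size and on a relative scale, on which the typical gene (median of ratios, from 14680 genes that had reads in every column) is set level and transgenic values come down 2.23-fold against wildtype values. Leaving these milk genes out of the library size brings them down 1.73-fold only, so the relative scale is more than a correction for the reads of these 8 genes.

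Promoter sequence is shown because several of these genes are themselves known NF-κB targets. RefSeq (GRCm38.p6) gave 10 promoters for 7 of the 10 genes, each reaching from 250 bases before to 50 bases after the start. The κB consensus, searched on both strands, was found in 7 of the 10 promoters, which belong to 5 of the 7 genes (Nfkb2, Rel, Nfkbia, Nfkbie and Tnfaip3), with 12 matches of which some overlap. Over all genes with a promoter, 1388 of 27025 (5.14%) held a match, and over all promoters 1480 of 32851 (4.51%). Of the other pathway genes listed further below, 22 of 74 with a promoter held a match. Among them were 9 of 17 targets, 6 of 11 other inhibitors and 3 of 28 other kinases and adaptors. One match of each of the 5 genes is printed below with its flanks, in the sense of the gene and with the match in capitals. It lies at chr19:46305445-46305508 (+) for Nfkb2, chr11:23771012-23771101 (-) for Rel, chr12:55492627-55492716 (-) for Nfkbia, chr17:45555554-45555643 (+) for Nfkbie and chr10:19015486-19015575 (-) for Tnfaip3.
Nfkb2: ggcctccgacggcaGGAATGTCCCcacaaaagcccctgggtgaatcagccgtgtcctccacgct
Rel: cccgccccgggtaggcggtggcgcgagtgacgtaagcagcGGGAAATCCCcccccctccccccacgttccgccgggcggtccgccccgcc
Nfkbia: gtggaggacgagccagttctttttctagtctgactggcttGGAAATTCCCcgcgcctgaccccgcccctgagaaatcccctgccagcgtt
Nfkbie: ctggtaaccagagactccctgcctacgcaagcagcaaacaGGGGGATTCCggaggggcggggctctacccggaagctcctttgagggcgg
Tnfaip3: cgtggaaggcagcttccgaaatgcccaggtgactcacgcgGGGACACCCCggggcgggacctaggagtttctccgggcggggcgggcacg
The first base of these matches lies 236, 92, 29, 106 and 125 bases before the RefSeq start of its promoter, in the same order of genes. That start is not always the outermost one of the gene, and the printed matches of Nfkb2 and Tnfaip3 lie 1139 and 122 bases inside the span that GENCODE gives the gene. A match is a description of letters, not of a bound site. No match was found in the promoters of Rela and Nfkbib, which says only that the letters are not in these windows. The RefSeq starts of the 10 promoters lay 0 to 68 bases from the nearest transcript start of the same gene in GENCODE.

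All 10 genes passed the filter of a mean of 2 RPKM in either genotype. Rel, Relb, Nfkbie and Tnfaip3 passed it through their transgenic mean alone and could not be called lower. Their wildtype means were 1.904, 1.375, 0.315 and 0.568 RPKM. By the size rule of a log2 change over 2 in RPKM + 1, 7 of the 10 were higher in transgenic mice and 0 were lower on the scale of library size, where 16.1% of all 13118 genes kept were called higher and 1.23% lower. The relative scale left 3 of the 10 higher (Nfkb2, Relb and Nfkbie) and 0 lower, where 4.46% of all genes were called higher and 3.34% lower. That count depends on how the relative scale is defined. Of 6 definitions computed, which differ in the genes that enter the median and in whether the factor is divided between the genotypes before 1 RPKM is added, 2 called these 3 genes and 4 called Nfkbie alone. The share of all genes called higher under the other 5 was 3.29%, 4.34%, 3.11%, 4.01% and 2.79%. The median change of the 10 genes was 2.34 on the scale of library size and 1.43 on the relative scale, beside 1.06 and 0.10 for all genes kept. The plot of both scalings shows the genes in 2 sets, with Nfkbia, Nfkbib and Ikbkb near the typical gene and the other 7 above it.

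**Figure D1:**
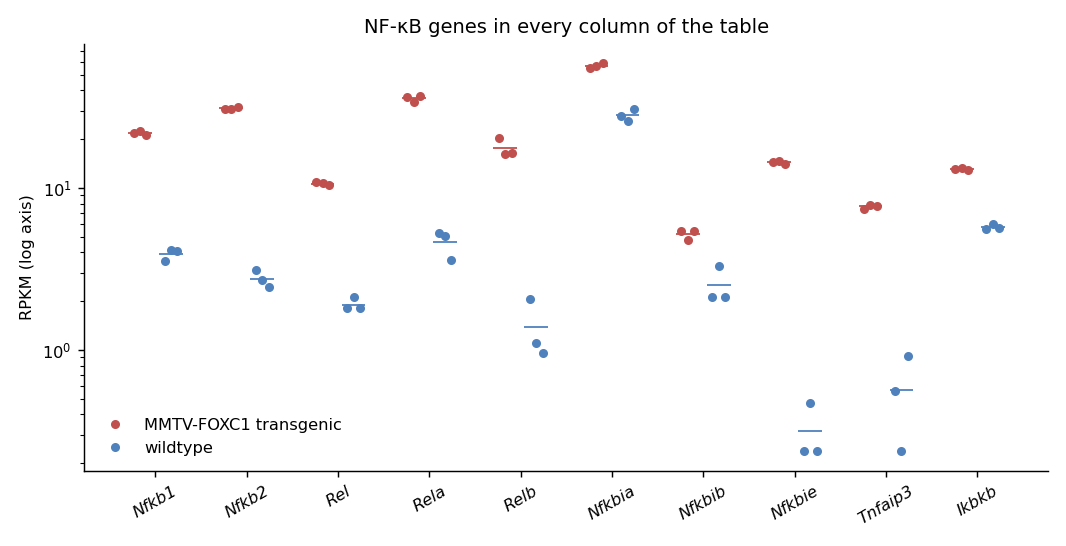
RPKM (log axis) of each of the 10 genes in the 3 columns of MMTV-FOXC1 transgenic (red, left) and wildtype (blue, right) mice, with the mean as a bar. Nfkbia had the highest mean in both genotypes (56.9 and 28.1 RPKM), and Nfkbie shows the widest gap (14.4 and 0.315 RPKM).

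**Figure D2:**
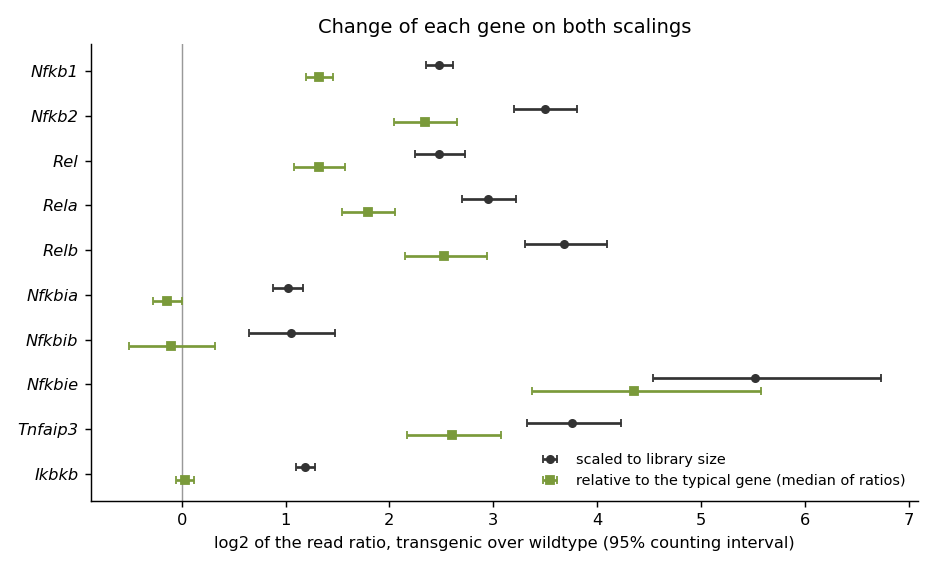
Log2 of the read ratio of transgenic over wildtype mice for each gene, scaled to library size (black circles) or to the typical gene (green squares), with 95% counting intervals. On the relative scale the intervals of Nfkbia, Nfkbib and Ikbkb include 0 and those of the other 7 genes lie above it. The share of all genes with an interval above 0 was not computed. Of the 13118 genes kept, 7144 had a positive relative log2 change of RPKM + 1. The interval of Nfkbia ends at 0.007, and its inclusion of 0 depends on the definition of the scale. The log2 shift is -1.16 here and -1.20 or -1.27 with the other gene sets.

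The order of the genes by level, which RPKM allows since it is per length, differed between the genotypes. In transgenic mice it ran from Nfkbia through Rela, Nfkb2, Nfkb1, Relb, Nfkbie, Ikbkb, Rel and Tnfaip3 to Nfkbib, and no neighbours in it overlapped between columns. In wildtype mice it ran from Nfkbia through Ikbkb, Rela, Nfkb1, Nfkb2, Nfkbib, Rel, Relb and Tnfaip3 to Nfkbie, and the columns of Rela and Nfkb1, of Nfkb2 and Nfkbib, of Rel and Relb and of Tnfaip3 and Nfkbie overlapped. Ikbkb thus stood second in wildtype mice and seventh in transgenic mice.

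Rela (ENSMUSG00000024927, chr19:5637483-5648130, + strand) encodes the main transactivating subunit of the canonical route. It had 36.5, 34.1 and 37.1 RPKM in transgenic mice, against 5.27, 5.06 and 3.58 RPKM in wildtype mice. The columns of the genotypes did not overlap, and the third wildtype column was the lowest. Here and below, columns without overlap are no replicate check, since those of a genotype were counted as 1 library. On the scale of library size 11499 of all 13118 genes kept had a positive change. The share of all genes without overlap was not computed. On 3444 and 132 reads the ratio was 7.74 (6.51 to 9.29), and on the relative scale it was 3.47-fold.

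Nfkb1 (ENSMUSG00000028163, chr3:135584655-135691547, - strand) encodes the usual partner of the Rela protein, made as a longer precursor. It had 22.0, 22.4 and 21.3 RPKM in transgenic mice, against 3.54, 4.13 and 4.11 RPKM in wildtype mice. Every transgenic column lay above every wildtype column. The ratio was 5.59 (5.10 to 6.13) on 9335 and 496 reads, and 2.50 on the relative scale.

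Rel (ENSMUSG00000020275, chr11:23736847-23770970, - strand) encodes c-Rel, which is best known from lymphocytes. It had 10.8, 10.7 and 10.4 RPKM in transgenic mice, against 1.80, 2.11 and 1.80 RPKM in wildtype mice, with no overlap. The ratio was 5.58 (4.73 to 6.62), and the relative ratio 2.50. Its log2 change of 2.00 stood at the limit of the size rule and fell under it when the first or second transgenic column, or wildtype column 1 or 3, was left out, so that 6 of the 10 genes were then called.

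Nfkb2 (ENSMUSG00000025225, chr19:46304320-46312385, + strand) and Relb (ENSMUSG00000002983, chr7:19606217-19629438, - strand) encode the subunits of the noncanonical route. Nfkb2 had 30.9, 30.9 and 31.6 RPKM in transgenic mice, against 3.13, 2.696 and 2.44 RPKM in wildtype mice. Relb had 20.4, 16.2 and 16.6 RPKM in transgenic mice, against 2.06, 1.10 and 0.958 RPKM in wildtype mice. Neither gene's columns overlapped between the genotypes, and the first column was the highest for Relb in both. The ratio was 11.3 (9.22 to 14.0) for Nfkb2 and 12.9 (9.88 to 17.1) for Relb, and on the relative scale 5.07 and 5.77. The transgenic columns of Relb spread more than counting noise gives, with a chi-square of 27.5 on 2 degrees of freedom that 2 of 7490 genes reached. Of the exonic bases of Nfkb2, 18.1% are shared with Psd and another annotated gene, and the use of strand in the counting is not given in the sources used here, so that their reads cannot be told apart.

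The subunits did not keep their proportions, and this does not depend on the scaling because both genes of a ratio come from 1 library. The ratio of Nfkb2 to Nfkb1 was 1.42 in transgenic and 0.702 in wildtype mice, a 2.02-fold difference (1.62 to 2.53). The ratio of Relb to Rela was 0.493 in transgenic and 0.297 in wildtype mice (1.66-fold, 1.21 to 2.28), whereas that of Relb to Nfkb2 was 0.568 and 0.499 (1.14-fold, 0.815 to 1.59), a difference not detectable at this depth. Both Rel and Nfkb1 were lower against Rela in transgenic mice, each 0.721 times the wildtype ratio (0.567 to 0.916 for Rel and 0.593 to 0.877 for Nfkb1). Of the summed RPKM of the 5 subunits, Nfkb2 and Relb made up 26.6% and 15.1% in transgenic mice, against 18.9% and 9.42% in wildtype mice. Nfkb1 made up 18.7% in transgenic and 26.9% in wildtype mice, though its share in single wildtype columns ranged between 22.4% and 31.9%. Rela held 30.6% in transgenic and 31.8% in wildtype mice. The first wildtype column, with 13.1% for Relb, lay near the transgenic columns, which had 14.2% to 16.9%.

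**Figure D3:**
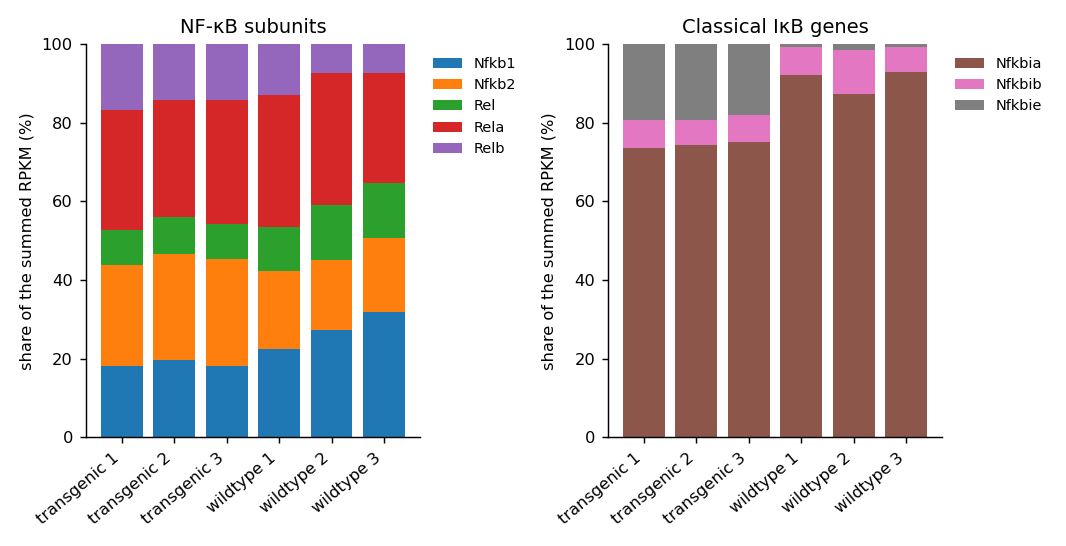
Share of the summed RPKM (%) taken by each of the 5 NF-κB subunits (left panel) and each of the 3 IκB genes (right panel) in every column, transgenic columns left of wildtype columns. Nfkbie takes 18.0% to 19.3% of the IκB sum in the transgenic columns and 0.716% to 1.6% in the wildtype columns.

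Nfkbia (ENSMUSG00000021025, chr12:55489410-55492647, - strand) encodes IκBα, the inhibitor that NF-κB itself induces and that ends a response. It had 55.3, 56.8 and 58.8 RPKM in transgenic mice, against 27.8, 25.8 and 30.7 RPKM in wildtype mice, without overlap. The ratio was 2.03 (1.84 to 2.24), which is close to the typical gene, and the relative ratio was 0.910. On the log2 scale the relative ratio was -0.14 (-0.28 to 0.01).

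Nfkbib (ENSMUSG00000030595, chr7:28758251-28767512, - strand) encodes IκBβ, which is not a classical feedback gene. It had 5.40, 4.78 and 5.40 RPKM in transgenic mice, against 2.11, 3.30 and 2.11 RPKM in wildtype mice. The second wildtype column was the highest of its genotype and still lay under every transgenic column. The ratio was 2.07 (1.57 to 2.79) on 398 and 57 reads, and the relative ratio was 0.929. Nfkbib shares 16.4% of its exonic bases with Sirt2 and Ccer2, so that the same limit on strand holds.

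Nfkbie (ENSMUSG00000023947, chr17:45555703-45563169, + strand) encodes IκBε, an inhibitor known to restrain Rela and c-Rel dimers in B cells. It had 14.4, 14.8 and 14.1 RPKM in transgenic mice, against 0.236, 0.472 and 0.236 RPKM in wildtype mice. The wildtype values rest on 8 reads and the transgenic ones on 1234 reads. The ratio was 45.8 (23.2 to 106), and 20.5 on the relative scale. It was the only one of the 10 genes past the size rule under all 6 definitions of the relative scale.

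Tnfaip3 (ENSMUSG00000019850, chr10:19000910-19015657, - strand) encodes a ubiquitin-editing enzyme that dampens signaling upstream of the kinase complex and is itself induced by NF-κB. It had 7.46, 7.89 and 7.72 RPKM in transgenic mice, against 0.555, 0.237 and 0.911 RPKM in wildtype mice. The wildtype columns, with 43 reads in all, had a chi-square of 10.1 on 2 degrees of freedom, and all lay under the transgenic columns. That chi-square was reached by 44 of 5835 genes, a share near the one that counting noise alone gives. The ratio was 13.6 (10.02 to 18.8), and the relative ratio 6.07.

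Against Rela, Nfkbia was at 1.59 in transgenic and 6.05 in wildtype mice, which is 0.262-fold (0.2147 to 0.3198). Nfkbib to Rela was 0.145 in transgenic and 0.541 in wildtype mice (0.268-fold, 0.193 to 0.371), and the ratio of Nfkbia to Nfkbib was 11.0 in transgenic and 11.2 in wildtype mice (0.979-fold, 0.730 to 1.31). Nfkbie went the other way, at 0.402 of Rela in transgenic and 0.0680 in wildtype mice (5.91-fold, 2.89 to 12.1). The IκB genes therefore differed among themselves, with Nfkbie 22.1-fold higher against Nfkbib in transgenic mice (10.4 to 46.7). The 3 IκB genes summed to 76.6 RPKM and the 5 subunits to 117 RPKM in transgenic mice, against 30.9 and 14.6 RPKM in wildtype mice. This puts the IκB sum at 0.653 of the subunit sum in transgenic and 2.12 in wildtype mice. Nfkbia made up 74.4% of the IκB sum in transgenic and 90.9% in wildtype mice. These are sums of RNA, and inhibition was not measured. Tnfaip3 to Rela was 0.214 in transgenic and 0.122 in wildtype mice (1.75-fold, 1.24 to 2.48). Without the third wildtype column its log2 difference was 1.48 in place of 0.81.

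**Figure D4:**
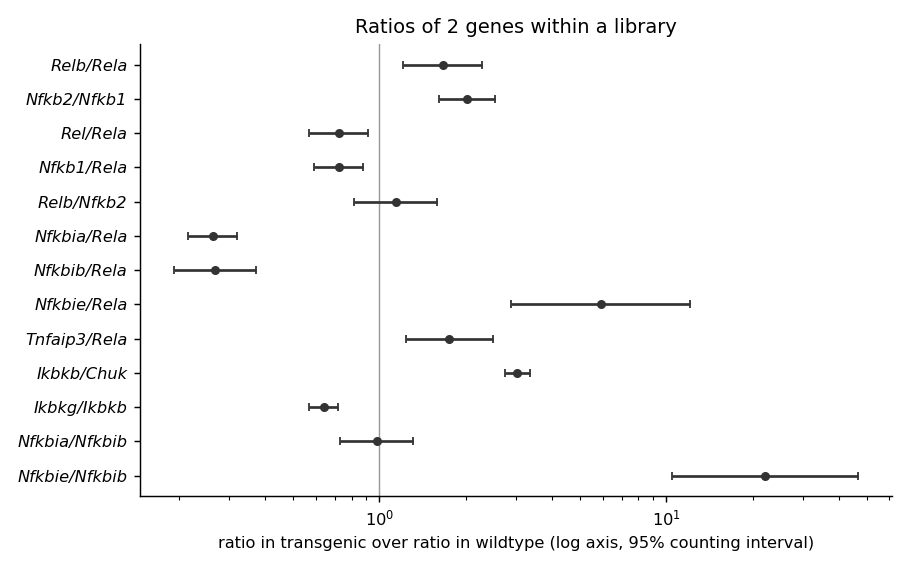
Fold difference of 13 ratios between a pair of genes, transgenic over wildtype mice (log axis), with 95% counting intervals. Nfkbia and Nfkbib lie at 0.262 and 0.268 against Rela, whereas Nfkbie lies at 5.91 against Rela and at 22.1 against Nfkbib.

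Ikbkb (ENSMUSG00000031537, chr8:22659212-22706589, - strand) encodes IKKβ, the kinase that phosphorylates IκB in the canonical route. It had 13.2, 13.3 and 12.9 RPKM in transgenic mice, against 5.58, 6.01 and 5.67 RPKM in wildtype mice, without overlap. The ratio was 2.28 (2.14 to 2.43) on 8580 and 1117 reads, and the relative ratio 1.02. Its partners in the kinase complex had other values. Chuk, which encodes IKKα, averaged 12.6 RPKM in transgenic and 16.7 RPKM in wildtype mice, and Ikbkg, the regulatory subunit, 8.11 and 5.57 RPKM. The ratio of Ikbkb to Chuk was accordingly 1.04 in transgenic and 0.345 in wildtype mice (3.02-fold, 2.74 to 3.34), and that of Ikbkg to Ikbkb 0.618 and 0.968 (0.639-fold, 0.568 to 0.719).

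In tissue, fewer cells of a type and less RNA per cell cannot be told apart, and markers of some other cell types were also higher in transgenic mice. Of 35 leukocyte marker genes kept, 28 were higher by the size rule on the scale of library size and 21 on the relative scale, and 0 were lower on either. Some of them, such as Ptprc and Coro1a, passed the filter through their transgenic mean alone and could not be called lower. The 6 pan-leukocyte markers (Ptprc, Coro1a, Laptm5, Lcp1, Itgb2 and Cd53) summed to 307.5 to 309.5 RPKM in the transgenic columns and to 15.2 to 16.0 RPKM in the wildtype columns. The neutrophil list did not follow. Of its 3 genes kept, 0 were called on either scale, with a median relative change of -0.21 and sums of 29.1 to 32.4 RPKM in the transgenic columns and 20.2 to 21.6 RPKM in the wildtype columns, and its defining marker Ly6g was at 0 in both genotypes. The B cell markers summed to 229.8 to 233.2 RPKM in transgenic and to 8.03 to 10.3 RPKM in wildtype mice, the T cell markers to 249.8 to 263.6 and 10.7 to 12.5 RPKM, and the macrophage markers to 330.2 to 335.2 and 28.1 to 36.1 RPKM. Of 7 adipocyte and 7 fibroblast markers, all 7 of each were also higher on the scale of library size, and 6 and 5 on the relative scale. Of 7 basal and 6 endothelial markers, 1 and 2 were higher on the scale of library size and 0 on the relative scale, with median relative changes of 0.54 and 0.76. Of 13 luminal markers, 6 were higher and 1 lower on the scale of library size. The relative scale left 1 luminal marker higher and 1 lower, with a median relative change of 0.58. The part of these cells in the values of the 10 genes was not tested.

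Set against the pan-leukocyte sum, 9 of the 10 genes were lower in transgenic mice, with folds between 0.103 (Nfkbia) and 0.690 (Tnfaip3), and Nfkbie was 2.33-fold higher (1.16 to 4.69). The sum rose more than the typical gene, whose median log2 change was 1.06 on the scale of library size. Most genes in the table are therefore lower against this sum, and the share over all genes was not computed. Without the third wildtype column Tnfaip3 was level with the sum (log2 0.01). These folds depend on Lcp1, which held 38.6 RPKM of the sum in transgenic and 8.47 RPKM in wildtype mice. Without Lcp1 the other 5 markers summed to 269.8 to 270.8 RPKM in the transgenic columns and to 7.1 to 7.51 RPKM in the wildtype columns. Nfkbie was then at 1.23 (0.606 to 2.49), a difference not detectable at this depth. The other 9 genes were lower, as most genes in the table are, with folds between 0.0544 (Nfkbia) and 0.363 (Tnfaip3). Set against the sum of 13 luminal markers, Nfkbia (0.953), Nfkbib (0.974) and Ikbkb (1.07) were near 1 and the other 7 were 2.62-fold to 21.5-fold higher. Muc1 held much of the wildtype luminal sum (3.38 of 518.7 to 521.1 RPKM in transgenic columns, against 104.7 of 238.5 to 247.3 RPKM in wildtype columns). Without it, Nfkbia, Nfkbib and Ikbkb were at 0.548, 0.560 and 0.616, and the other 7 genes were 1.51-fold to 12.4-fold higher. The share of all genes that were higher against the luminal sum, with or without Muc1, was not computed.

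The other genes of the pathway numbered 96 in 5 lists, of which 81 passed the filter. On the scale of library size 26 of the 81 were higher and 0 lower, where 16.1% and 1.23% of all genes kept were called. The relative scale left 13 higher and 2 lower, beside 4.46% and 3.34% of all genes. The same shares stand behind the count of each list, and the 5 and 1 of 34 kinases and adaptors were not above them. In each list some genes, such as Tnip1, Map3k14, Tnfrsf1b, Ltb and Ccl5, passed the filter through their transgenic mean alone. Such genes could not be called lower. The median relative change of the 81 genes was 0.44, beside 0.10 for all genes kept. That of the 34 kinases and adaptors alone was 0.13.

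Of 15 other inhibitors and IκB-like genes kept, 5 were higher on the scale of library size and 2 on the relative scale. Tnip1, a partner of the Tnfaip3 protein, averaged 25.3 RPKM in transgenic and 1.85 RPKM in wildtype mice (relative log2 change 2.26). Nfkbid, a nuclear IκB gene, averaged 10.4 and 0.529 RPKM (2.16). Otulin, a deubiquitinase of linear chains, had a relative change of 1.91, and Bcl3, a nuclear IκB protein that binds the Nfkb1 and Nfkb2 products, one of 1.15. Nfkbiz, another nuclear IκB gene, averaged 12.0 RPKM in transgenic and 6.37 RPKM in wildtype mice (-0.22). Tax1bp1 and Rnf11, which act with the Tnfaip3 protein, averaged 16.4 and 13.6 RPKM in transgenic mice, against 24.1 and 19.6 RPKM in wildtype mice (-1.62 and -1.58).

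Of 34 other kinases and adaptors kept, 5 were higher on the scale of library size and 1 on the relative scale. Map3k14, the kinase of the noncanonical route, averaged 9.32 RPKM in transgenic and 0.757 RPKM in wildtype mice (relative log2 change 1.77). Card10, a scaffold protein that acts with Bcl10 and Malt1, had a relative change of 1.57, and Irak3, a negative regulator of Toll-like receptor signaling, one of 1.84. Chuk and Ube2n, a ubiquitin-conjugating enzyme, were at -1.46 and -1.25.

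Of 11 receptors kept, 3 were higher on the scale of library size. The relative scale left 1 higher, with 2 lower. Tnfrsf11a, which encodes RANK, had 12.0, 11.5 and 11.5 RPKM in transgenic mice, against 33.7, 32.7 and 33.8 RPKM in wildtype mice, and its relative change was -2.53. Tlr2, a Toll-like receptor, averaged 3.12 RPKM in transgenic and 15.03 RPKM in wildtype mice (-2.93). Tnfrsf1b, a TNF receptor of leukocytes, averaged 19.2 and 0.949 RPKM (2.52). The relative change was 1.55 for Tnfrsf13c, the BAFF receptor of B cells, 1.17 for Il1r1 and 0.87 for Ltbr, a receptor that feeds the noncanonical route.

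Of the 9 ligands, 5 were kept and 3 of these were higher on both scales. All 5 passed the filter through their transgenic mean alone, so a positive change on the scale of library size was fixed by the filter. Ltb, a lymphotoxin subunit made by lymphocytes, averaged 47.7 RPKM in transgenic and 0.635 RPKM in wildtype mice. Tnf averaged 6.89 and 0.175 RPKM, and Lta 5.94 and 0.0690 RPKM. Cd40lg had 97 reads in transgenic and 0 in wildtype mice, which is at least 9.60-fold higher against a floor of 3 reads in the wildtype library, or 4.30-fold on the relative scale. Tnfsf11, the ligand of RANK, was under the filter with 118 reads in transgenic and 0 in wildtype mice, at least 11.7-fold higher against the same floor, or 5.23-fold on the relative scale. 

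Of 16 target genes kept of 24, 10 were higher on the scale of library size and 6 on the relative one, with none lower on either. Some of the 16, among them Ccl5, Cd83 and Gadd45b, passed the filter through their transgenic mean alone and could not be called lower. The 8 targets under the filter were not called in either direction. Ccl5, a chemokine of T cells, averaged 51.4 RPKM in transgenic and 1.49 RPKM in wildtype mice (relative log2 change 3.46). Cd83, a marker of activated B and dendritic cells, had 851 reads and 1 read. Junb and Gadd45b, early response genes, had relative changes of 2.44 and 2.54. Ccnd1, which encodes cyclin D1 and is a target of the RANK route in the gland, averaged 60.5 RPKM in transgenic and 22.1 RPKM in wildtype mice (0.29), with 23.4% of its exonic bases shared with other genes.

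**Figure D5:**
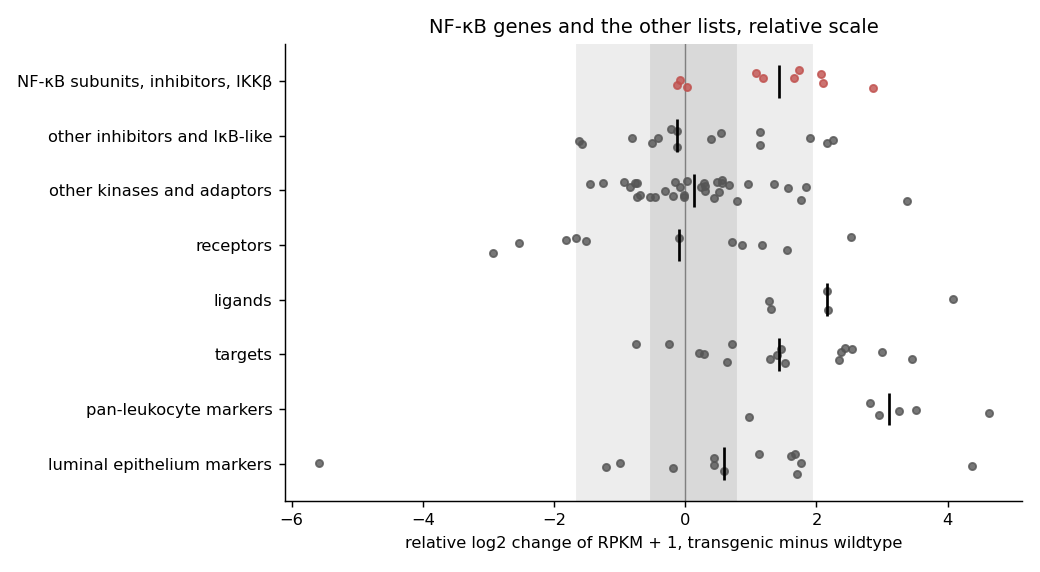
Relative log2 change of RPKM + 1 (transgenic minus wildtype) of each gene kept in the NF-κB list (red), the 5 other pathway lists and 2 marker lists, with the list's median as a bar. The pale and dark grey bands hold the middle 90% and 50% of all genes kept (-1.66 to 1.93 and -0.51 to 0.78). The medians of the NF-κB list (1.43) and the targets (1.43) lie above the dark band. Those of the ligands (2.15) and the pan-leukocyte markers (3.10) lie above both. The 5 ligands kept, and some genes of the other lists, passed the filter through their transgenic mean alone.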

How the data were processed

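RNA was depleted of ribosomal RNA and sequenced as single reads. The authors aligned reads to GRCm38 with TopHat2 (2.0.7) and deposited RPKM per gene, estimated with SAMMate and Ensembl gene models and scaled to library size. The table also holds the authors' means, log2 fold changes and fold changes, which were not used. No column of an unknown sample was used.

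Whole reads were recovered from the steps of the RPKM values (8699 genes whole within 1e-05 reads at the exonic length of GENCODE M21, and 9609 at the shortest length that made every column whole), and gave depths of 11770867 to 11775866 reads in transgenic and 3492861 to 3496335 in wildtype columns. The length was fitted for Nfkb2, Rela, Nfkbia, Nfkbie and Ikbkb. Since the columns of a genotype behaved as 1 library, no test was run. The 13118 genes that averaged 2 RPKM or more in at least 1 genotype were called by a log2 change over 2 in RPKM + 1. The relative scale divides a median-of-ratios factor between the genotypes. Its definition was changed during the work, after output had been seen, and it called 1, 3 and then 1 of the 10 genes. The definition kept, which calls 3, is the usual one for size factors over all 6 columns, and all 6 combinations of gene set and division of the factor were then computed and are given. Read ratios have Clopper-Pearson intervals and ratios within a library delta-method intervals (95%), both of counting error only. Reads without molecular identifiers are not independent molecules.

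The 10 genes and all lists were chosen with earlier results of these data known. Named besides them are, of each pathway list, the 4 genes kept with the largest library-size change in the direction most took and the 2 with the largest in the other, plus Chuk, Ikbkg, Bcl3, Nfkbiz, Tnfrsf11a, Tnfsf11, Ccnd1 and Foxc1. One gene that this rule names is not reported here. Alternatives were other scalings, pseudocounts, thresholds, no filter and each column left out. Marker sums without Muc1 or Lcp1 were added after seeing the data. The recovery and the calls were tested on simulated data. Python 3.11.15, numpy 2.4.6, pandas 2.3.3, scipy 1.17.1 and matplotlib 3.10.9 were used.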

Additional observations from a re-analysis of the deposited data

How the results depend on the processing

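Of the 10 genes, 7 were called higher when scaled to library size. This count was 3 with median-of-ratios size factors and with a trimmed mean of ratios, and 2 (Nfkb2 and Rela) with a pseudocount of 5. The 5 other definitions of the relative scale, added after seeing the data, gave 3 (genes with reads in both genotypes) or 1 (the factor on transgenic values alone, the same with that gene set, and genes kept with reads in both genotypes with the factor divided or not). Nfkbia and Nfkbib were below 0 under all 6 definitions and Ikbkb under 4. With milk genes left out of the library size 5 were called. Leaving out a column gave 6 to 7. The count of lower genes was 0 throughout. Of the other pathway genes, 26 were called higher by library size, 13 with size factors, the trimmed mean or the divided factor, 10 with the factor on transgenic values alone, 16 without milk genes, 7 with a pseudocount of 5, 50 at a threshold of 1, and 24 to 27 with a column left out. Lower were 0, 2 under every other scaling, 1 with a pseudocount of 0.1, 3 at a threshold of 1, and 0 to 1 with a column left out. No paired analysis was possible because the columns of a genotype were counted as 1 library and no test was run. The wildtype library was 3.37 times shallower, and Nfkbie and Tnfaip3, with 8 and 43 wildtype reads, have the widest intervals.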
